A study of Homo sapiens with 24 samples.

Results

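FOXRED1 was knocked down with a short hairpin RNA (shFOXRED1) in OE33 cells, an established human cell line from an esophageal adenocarcinoma, and the transcriptome was compared with that of OE33 cells given a control hairpin (shControl). The comparison holds 6 of the 24 RNA-seq libraries of the series, 3 labelled as FOXRED1 knockdown and 3 labelled as its control, and every gene that passed a filter on low counts was tested. Both groups were transfected with hairpin plasmids for 72 h, so plasmid transfection was common to them. The hairpin was the labelled difference, and any difference in culture or handling that went with the groups cannot be told apart from it. The wider study asked how TRIM15 and the transcription factor YY2 act on lipid and energy metabolism in esophageal adenocarcinoma, and this experiment asked what the loss of FOXRED1 does to these programmes. The sources used here describe 2 FOXRED1 hairpins and do not say which was sequenced, so the knockdown is treated as a single reagent. Nothing in the labels says that replicates were separate cultures, so p-values measure the spread between these libraries, which may be technical.

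FOXRED1 is a mitochondrial flavoprotein, an oxidoreductase that binds FAD and acts as an assembly factor of respiratory complex I. Complex I takes electrons from NADH, passes them to ubiquinone and pumps protons across the inner mitochondrial membrane. Its subunits are encoded in both the nuclear and the mitochondrial genome, and assembly factors such as FOXRED1 join the pre-formed modules without staying in the finished enzyme. Loss of FOXRED1 is known to cause complex I deficiency.

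The hairpins are shown because their positions decide which FOXRED1 transcripts they can reach. Each target site is written 5′ to 3′ on the sense strand, and the capitals mark the 7 bases that pair with bases 2 to 8 of a guide strand complementary to the whole site.
shFOXRED1 #1: gcagttctcattgCCTGAGAa
shFOXRED1 #2: cccgctagttgtcAACATGTa
FOXRED1 (ENSG00000110074) lies on the plus strand of chromosome 11 at chr11:126269055-126278131 in the GRCh38 gene models of GENCODE 29. The site of hairpin #1 was found at chr11:126273013-126273033 in exon 3 of the 11 exons of the main coding transcript, at bases 351 to 371 of a coding sequence of 1458 bases without its stop codon. The site of hairpin #2 was found at chr11:126277503-126277523 in exon 11, the last, at bases 1275 to 1295 of the coding sequence. Site #1 was present in 11 and site #2 in 9 of the 18 annotated FOXRED1 transcripts, and both sites were in 2 of 2 coding transcripts. Neither site matched a transcript of another gene over its full length.

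FOXRED1 was at 10.1, 11.2 and 8.83 CPM in the shFOXRED1 libraries and 17.7, 17.2 and 17.3 CPM in the shControl libraries. The groups did not overlap: every library labelled as knockdown was below every control. FOXRED1 transcript fell 1.72-fold, to 58.1% of control, from 17.4 ± 0.29 to 10.1 ± 1.19 CPM (SD, n = 3 a group). CPM are counts per 1000000 counts of each library's effective size, which is its total count times a scaling factor (TMM). In the quasi-likelihood test of edgeR, with p-values adjusted by Benjamini-Hochberg across the 15730 genes tested, the log2 fold change was -0.78 ± 0.11 (SE), adjusted p = 4.06e-05, and it lay between -0.87 and -0.71 when any library was left out. Residual FOXRED1 transcript was well above 0, and 422 of the genes that fell did so by a larger fold than FOXRED1 itself. Per kilobase of its longest coding transcript, FOXRED1 was at 8.83 CPM per kb in the controls, rank 14 of 21 when set among the complex I assembly factors, and at 5.11 CPM per kb after knockdown.

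**Figure D1:**
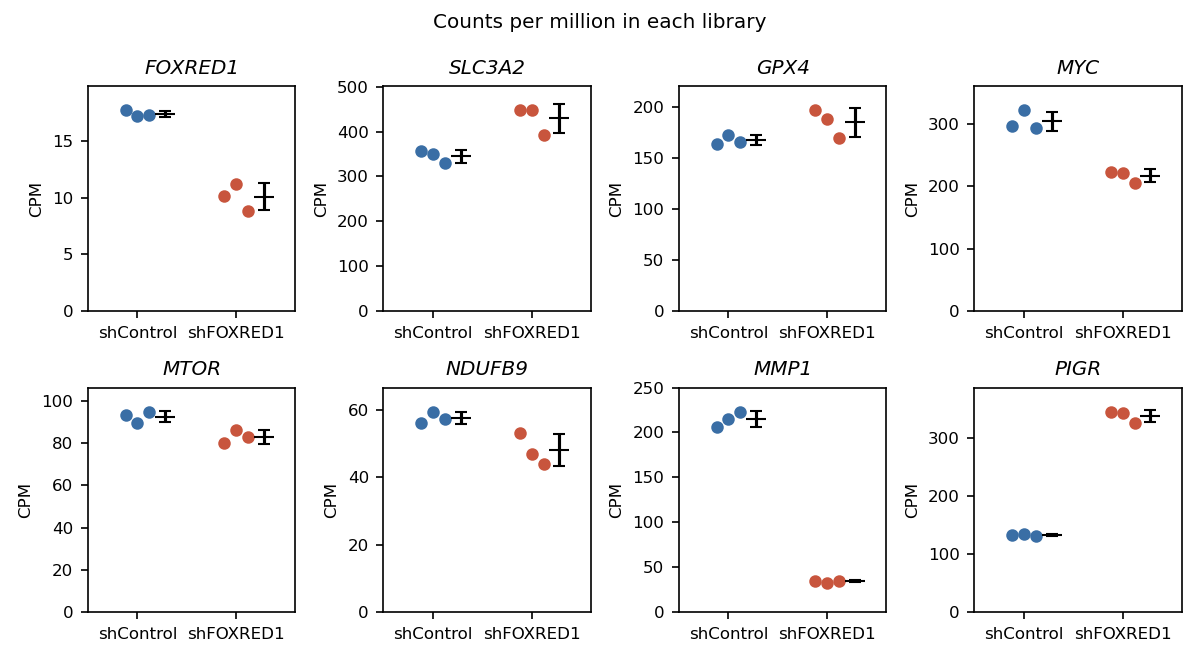
Level of 8 genes in each library, in CPM on axes that start at 0, with a point per library and the mean and SD of each group of 3. FOXRED1, MYC, NDUFB9 and MMP1 lie lower in all 3 knockdown libraries, SLC3A2 and PIGR lie higher in all 3, and the points of MTOR are separated by less than those of MYC.

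The libraries held 14299807 to 18522633 counts. All counts for the 37 mitochondrially encoded genes were listed at 0 in the 6 libraries, so the subunits of complex I encoded there are outside the measurement. The knockdown libraries detected more genes (26213 to 27085 against 24552 to 25408) and had a higher share of counts in long intergenic non-coding RNA genes (0.807% to 0.846% against 0.645% to 0.648%) and a slightly lower share in protein-coding genes (97.4% to 97.5% against 97.7% to 97.8%). Changes followed the base composition of transcripts: the median log2 fold change was -0.091 in the fifth of genes with the lowest GC content and 0.18 in the fifth with the highest, and 9.01% against 30.9% of these genes rose. Of the fifth of genes with the lowest level, 3.05% fell, and of the fifth with the highest level, 36.1%. These differences went with the groups, and their part in the results was not tested; values from an alternative fit with a GC correction are given beside the replication, mitosis and interferon genes and beside each other gene list in which the correction moved the number of members that rose or fell by at least 3. Of 22 columnar epithelial markers 18 were tested, their summed level was 16969 to 19670.0 CPM after knockdown and 17504 to 18356 CPM in the controls, and KRT20, TFF3 and CDX1 had no count in any library. The squamous markers summed to 5.95 to 10.8 and 7.32 to 9.11 CPM, respectively. Of 11 fibroblast markers 10 were under 1 CPM and COL1A1 rose (0.71), of 8 endothelial markers 7 were under 1 CPM and ESAM fell (-0.34, a call lost without control replicate 1 or 2), and of 12 immune markers 10 were under 1 CPM, PTPRC among them.

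Knockdown of FOXRED1 was accompanied by many changes of modest size. Of the 15730 genes tested, 2650 rose (16.8%) and 3102 fell (19.7%) at an adjusted p under 0.05. The median size of a called change was 0.41 on the log2 scale, and 904 genes rose and 798 fell by at least 1.5-fold, 344 and 200 by at least 2-fold. Of the genes that rose at least 2-fold, 275 had a mean level under 5 CPM. In 7351 genes (46.7%) all CPM values of one group lay above those of the other, so a gap between 3 and 3 libraries was common and is given below as a description. An exact permutation test of 3 against 3 libraries cannot give a p under 0.1, so the calls rest on the spread pooled across genes. The shares of all genes, 16.8% higher and 19.7% lower, are the background for each count of list members given below. These shares are not matched for level. In the fifth of genes with the lowest level 3.05% fell and 8.84% rose, and in the fifth with the highest level 36.1% fell and 20.6% rose. A list of abundant genes therefore has a higher background of falls, and no share matched for level was computed for the lists.

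The gene with the smallest p was MMP1, interstitial collagenase, at 35.3, 33.2 and 34.7 CPM in the shFOXRED1 libraries and 206, 215 and 223 CPM in the shControl libraries. The groups were far apart, and MMP1 fell 6.25-fold (log2 fold change -2.64 ± 0.063 (SE), adjusted p = 1.67e-14). IL1RL1, the receptor of interleukin 33, was at 120.2, 121 and 126 CPM after knockdown against 362, 361 and 379.7 CPM in the controls and fell 3.01-fold. ASPH, an aspartyl hydroxylase of the endoplasmic reticulum (-1.44), and AKAP12, a scaffold for protein kinase A (-1.07), were also among the 5 genes that fell with the smallest p. Among genes that rose, PIGR, the receptor that carries polymeric immunoglobulins across epithelia, was at 346, 344 and 326 CPM after knockdown against 134, 135 and 132 CPM in the controls. PIGR rose 2.54-fold (log2 fold change 1.34 ± 0.051 (SE), adjusted p = 9.16e-12), with the 3 knockdown libraries close to each other. The nuclear long non-coding RNA NEAT1 was at 3689.7, 3398 and 3485 CPM after knockdown against 1867, 1830.1 and 1817 CPM in the controls, a rise of 1.92-fold at high abundance. BCAS1 (1.24), the BH3-only gene BMF (1.72) and TGM2, tissue transglutaminase (1.29), also rose, and none of these calls was lost under any alternative fit.

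By size, the 12 genes that fell most, among those averaging 1 CPM or more whose groups stood apart, were led by MIR100HG, a long non-coding host gene of microRNAs, at 0.166, 0.270 and 0.205 CPM after knockdown against 2.09, 2.59 and 1.5 CPM in the controls (log2 fold change -3.22 ± 0.43 (SE), adjusted p = 1.38e-05). In the knockdown libraries only a few reads carry the value. CPA4 (-2.64), a secreted carboxypeptidase, SERPINB2 (-2.20), an inhibitor of plasminogen activators, and ANPEP (-1.98), a cell-surface aminopeptidase, fell with MMP1. The cytokine receptor gene IL31RA (-2.09), the cornified-envelope gene SCEL (-2.07), ZBED2 (-2.14) and TAGLN3 (-2.04) and the ubiquitin ligase gene MARCHF4 (-1.93) were also among the 12, beside SPCS2P4 (-1.92), a processed pseudogene whose reads may be shared with its parent gene. MARCHF4 was at 1.11, 0.108 and 0.205 CPM after knockdown against 1.93, 1.53 and 2.17 CPM in the controls, and its log2 fold change was -3.56 without knockdown replicate 1. SPCS2P4 was at 2.33, 2.0 and 2.46 CPM after knockdown against 3.63, 7.17 and 15.2 CPM in the controls, and its log2 fold change was -1.24 without control replicate 3. In both genes a single library moved the size of the fall by over 1.5 times, and the calls remained.

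Among the 12 genes that rose most, CX3CL1, a membrane-bound chemokine also called fractalkine, was at 16.2, 14.5 and 13.5 CPM after knockdown against 2.37, 2.65 and 2.58 CPM in the controls. The groups were far apart, and CX3CL1 rose 5.82-fold (log2 fold change 2.54 ± 0.15 (SE), adjusted p = 1.24e-09). The C-type lectin gene CLEC12A (2.51), CEACAM7 (2.20), a cell-adhesion molecule of colonic epithelium, ATP13A4 (2.25), the calcitonin receptor gene CALCR (2.08), and SEZ6 (2.78), CATSPERG (2.15) and IL17REL (2.02) rose as well. SEZ6 was at 1.61, 1.51 and 2.67 CPM after knockdown against 0.220, 0.597 and 0 CPM in the controls, and its log2 fold change was 3.90 without control replicate 2. For GFUS, a GDP-fucose synthase, a single library set the value: it was at 2.11, 1.41 and 12.3 CPM in the shFOXRED1 libraries and 0.495, 1.19 and 1.09 CPM in the shControl libraries, and without knockdown replicate 3 its log2 fold change was 0.94 with an adjusted p of 0.0589. ARHGAP27 was likewise carried by knockdown replicate 2, with 1.66, 17.3 and 1.71 CPM in the shFOXRED1 libraries and 1.6, 1.46 and 1.43 CPM in the shControl libraries, and had a log2 fold change of 0.17 (adjusted p = 0.753) without that library. RN7SL5P (4.21), a copy of the signal recognition particle RNA, has near-identical copies, so its counts are uncertain. The log2 fold change of RN7SL5P was 3.27 without knockdown replicate 1 and 5.19 without control replicate 1. The pseudogene VNN3P (1.91) also rose, and whether it shares reads with related genes was not tested.

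For complex I, the enzyme that FOXRED1 helps to build, the share of subunit genes that fell was near that of all genes. These are transcript values, while the study reports lower levels of complex I subunits by Western blot after FOXRED1 knockdown. Of 35 nuclear-encoded subunits tested 7 fell (20% beside 19.7% of all genes) and 1 rose, with a median log2 fold change of -0.065 beside 0.012 over all genes tested; NDUFA6 and NDUFA7 had too few counts to be tested. NDUFS1, the largest subunit of the electron-input module, was at 104, 103 and 104 CPM after knockdown against 135, 135 and 140.3 CPM in the controls. The groups did not overlap, and NDUFS1 fell 1.32-fold (log2 fold change -0.40 ± 0.055 (SE), adjusted p = 1.85e-05). NDUFAB1, the mitochondrial acyl carrier protein (-0.36), NDUFS5 (-0.32), NDUFB3 (-0.38), NDUFB6 (-0.34) and NDUFA10 (-0.18) also fell. NDUFB9, an accessory subunit of the membrane arm, was at 53.1, 46.8 and 43.9 CPM after knockdown against 56.0, 59.4 and 57.1 CPM in the controls (log2 fold change -0.26 ± 0.076 (SE), adjusted p = 0.0125), and the call was lost without knockdown replicate 2 (adjusted p = 0.0554) or control replicate 2 (adjusted p = 0.0649). NDUFS3, a core subunit, had -0.14 ± 0.090 (SE) with an adjusted p of 0.233, and NDUFA9, an accessory subunit near the ubiquinone site, had -0.30 ± 0.14 (SE) with an adjusted p of 0.103. The 1 subunit that rose was NDUFV2, at only 3.38, 2.11 and 3.08 CPM after knockdown against 1.98, 1.33 and 1.77 CPM in the controls (log2 fold change 0.74 ± 0.27 (SE), adjusted p = 0.0385), a call lost under DESeq2 and without knockdown replicate 1 or 3 or control replicate 2 or 3, while its partner in the same module, NDUFV1, had a mean of 109 CPM in the controls. The count of subunits that fell was 4 without knockdown replicate 2 and 3 without control replicate 2, and that of subunits that rose was 3 without knockdown replicate 3 and 2 without control replicate 1 or with the replicate number as a block; with the GC correction 10 fell and 1 rose.

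Among assembly factors of complex I 3 of 20 fell, none rose, and the median was -0.12. Those that fell were NUBPL, which delivers iron-sulfur clusters to complex I, at 10.5, 10.2 and 12.4 CPM after knockdown against 16.2, 15.8 and 16.7 CPM in the controls (log2 fold change -0.56 ± 0.11 (SE), adjusted p = 8.13e-04), AIFM1, an inner-membrane oxidoreductase (-0.37), and TMEM126B, a factor for the membrane arm (-0.18), whose call was lost under several alternatives, the GC correction included. Without knockdown replicate 3 or control replicate 1, 5 factors fell. ACAD9 (0.17 ± 0.074 (SE), adjusted p = 0.0744) and TIMMDC1 (0.011 ± 0.062 (SE), adjusted p = 0.910) did not pass the test. The log2 fold change of FOXRED1 itself was larger in size than that of any of these 20 genes.

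In the rest of the respiratory chain many transcripts fell and none rose. Of 45 genes of complexes II to V and cytochrome c, 21 fell (median -0.18; 14 to 23 fell under the alternatives), which is 46.7% beside 19.7% of all genes. CYCS, cytochrome c, which carries electrons from complex III to IV and activates caspases once released, was at 86.5, 84.5 and 85.4 CPM after knockdown against 169.6, 178 and 186 CPM in the controls. The knockdown libraries differed by little from each other, and CYCS fell 2.08-fold (log2 fold change -1.06 ± 0.057 (SE), adjusted p = 4.77e-10). The ATP synthase subunits ATP5F1A (-0.43) and ATP5F1B (-0.41) and the hinge subunit of complex III, UQCRH (-0.53), fell as well. Among 23 genes of mitochondrial import, proteases and chaperones, 9 fell (39.1%) and none rose (median -0.14), among them the chaperonin HSPD1 (-0.42), the matrix chaperone HSPA9 (-0.28), and the translocase subunits TOMM20 (-0.44) and TIMM50 (-0.46); 3 rose under the replicate block, and 13 fell with the GC correction. Of 24 genes of mitochondrial dynamics and mitophagy 7 fell (29.2%), led (with 4 that fell without knockdown replicate 2 or control replicate 3) by OPA1, which fuses inner membranes (-0.52), and the mitochondrial ribosomal RNA methyltransferase TFB1M (-0.58), and 3 rose, among them the autophagy receptor SQSTM1 (0.76) and the coactivator PPARGC1A (0.39), with 5 that rose without knockdown replicate 3. Mitochondrial ribosomal protein genes fell in 20 of 75 cases (26.7%) and rose in 1, MRPL28 (0.31); the fall was led by MRPL3 (-0.39), 12 rather than 20 fell without control replicate 2, 16 fell with the GC correction, and 12 rather than 1 rose without knockdown replicate 3.

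Genes of central carbon metabolism fell more often than they rose. Of 30 genes of the tricarboxylic acid cycle and pyruvate entry, 14 fell and none rose (median -0.20; 17 fell with the GC correction), led by ACO1, the cytosolic aconitase and iron sensor (-0.59), fumarase FH (-0.60), the aspartate aminotransferase GOT2 (-0.46) and malic enzyme ME1 (-0.58). Of 27 glycolysis genes 14 fell and 3 rose (median -0.25). SLC16A1, the lactate carrier MCT1, was at 89.2, 91.3 and 106 CPM after knockdown against 183, 184 and 190.2 CPM in the controls (log2 fold change -0.96 ± 0.066 (SE), adjusted p = 6.90e-09), and the aldolase ALDOC (-1.35) and the phosphofructokinase PFKP (-0.57) fell with it. PFKFB3, which makes the activator of phosphofructokinase, was at 287, 285 and 258 CPM after knockdown against 155, 168 and 159 CPM in the controls and rose (log2 fold change 0.78 ± 0.057 (SE), adjusted p = 1.40e-08), as did the lactate exporter SLC16A3 (0.54). In the ATF4 list, which holds amino acid and mitochondrial stress genes, 20 of 37 fell and 6 rose (median -0.17; 25 and 5 with the GC correction). The serine synthesis enzymes PSAT1 (-0.61), PHGDH (-0.60) and PSPH (-0.62), the mitochondrial folate enzymes MTHFD2 (-0.68) and ALDH1L2 (-1.2), and asparagine synthetase ASNS (-1.04) fell, while the transcription factor gene ATF5 (1.2) and the stress cytokine GDF15 (0.56) rose.

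Lipid genes were called in both directions, in several lists at shares near those of all genes (16.8% higher and 19.7% lower). Of 49 genes of glycerophospholipid synthesis and remodelling, 12 rose (24.5%) and 16 fell (32.7%), with a median of 0.0020. GPCPD1, which cleaves glycerophosphocholine, was at 339.9, 331 and 391 CPM after knockdown against 169, 169.5 and 180.2 CPM in the controls and rose 2.04-fold (log2 fold change 1.03 ± 0.062 (SE), adjusted p = 1.56e-09). PTDSS1, a phosphatidylserine synthase, was at 55.5, 57.0 and 49.9 CPM after knockdown against 107, 109 and 109 CPM in the controls and fell 2.0-fold (log2 fold change -1.0 ± 0.065 (SE), adjusted p = 3.77e-09). In both genes the groups were well apart, with opposite signs. SELENOI (-0.81), an ethanolamine phosphotransferase, and the lysophospholipase LYPLA1 (-0.71) fell too. Of 20 triglyceride storage and lipolysis genes 3 rose and 3 fell (15% each): the lipase PNPLA2 (0.50), its inhibitor HILPDA (0.59) and hormone-sensitive lipase LIPE (0.43) rose, and monoglyceride lipase MGLL (-0.40), the PNPLA2 co-activator ABHD5 (-0.60) and the fatty acid carrier FABP5 (-0.62) fell. PLIN2, which coats lipid droplets, was at 113, 118 and 123 CPM after knockdown against 113, 114 and 118 CPM in the controls with overlapping groups (log2 fold change 0.038 ± 0.058 (SE), adjusted p = 0.644), and the last enzymes of triglyceride synthesis, DGAT1 (-0.10, adjusted p = 0.30) and DGAT2 (0.099, adjusted p = 0.266), did not pass the test.

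Fatty acid synthesis gave 4 genes that rose (21.1%) and 3 that fell (15.8%) of 19 tested. SREBF1, the transcription factor gene of lipogenesis (0.45), and ACACB (0.49) rose, the elongase ELOVL6 (-0.56) and the desaturase FADS2 (-0.65) fell, and the abundant enzymes SCD (0.14) and FASN (0.14) rose by a small amount. Of 25 beta-oxidation genes 5 fell (20%), among them CPT1A, the entry step into mitochondria (-0.41), and ETFA (-0.42), ACADM (-0.62) and HADHA (-0.33), and 2 rose (8%), CPT1B (1.09) and ACOT2 (0.35). In the cholesterol list 4 rose (12.9%) and 6 fell (19.4%) of 31, with INSIG1, a brake on cholesterol synthesis, at 67.2, 65.8 and 72.7 CPM after knockdown against 29.7, 36.4 and 32.5 CPM in the controls (log2 fold change 1.06 ± 0.080 (SE), adjusted p = 2.20e-08), and SOAT1, which esterifies cholesterol, at -0.69. Of 27 sphingolipid genes 4 rose (14.8%) and 7 fell (25.9%), with values from -2.54 to 2.16 over all members tested, called or not. The ceramidase ACER2 (0.85) was among those that rose, and the sphingomyelin synthase SGMS2 (-0.89) among those that fell. With the replicate number as a block, the genes that fell were 5 rather than 3 for fatty acid synthesis, 10 rather than 5 for beta-oxidation and 14 rather than 7 for sphingolipids, and 8 rather than 4 cholesterol genes rose. With the GC correction 6 rather than 3 genes fell in each of the triglyceride and fatty acid synthesis lists, 8 rather than 5 beta-oxidation and 10 rather than 7 sphingolipid genes fell, and 8 cholesterol and 7 sphingolipid genes rose rather than 4 of each. Without knockdown replicate 3, 9 beta-oxidation and 12 sphingolipid genes fell and 7 cholesterol genes rose, and 3 or 2 cholesterol genes rather than 6 fell without knockdown replicate 1 or control replicate 1. Without control replicate 2, 2 rather than 4 fatty acid synthesis genes rose, and with knockdown replicate 1 or 2 or control replicate 1 or 3 left out, 1 rather than 2 beta-oxidation genes rose.

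The study followed SLC3A2, GPX4, MYC and mTOR downstream of FOXRED1. For MYC and mTOR it measured protein: after FOXRED1 knockdown c-MYC and phosphorylated mTOR rose, and total mTOR was unchanged. The values given here are of transcripts, which need not follow protein or phosphorylation. SLC3A2, the heavy chain of the cystine-glutamate antiporter and of other amino acid exchangers, was at 447, 448 and 393 CPM in the shFOXRED1 libraries and 356, 351 and 329 CPM in the shControl libraries. All knockdown libraries were above all controls, and SLC3A2 rose 1.24-fold (log2 fold change 0.31 ± 0.057 (SE), adjusted p = 3.30e-04). GPX4, the peroxidase that removes lipid hydroperoxides and restrains ferroptosis, was at 197, 188 and 169 CPM in the shFOXRED1 libraries and 164, 172 and 166 CPM in the shControl libraries. The groups overlapped only by a small margin, and the log2 fold change of 0.14 ± 0.060 (SE), adjusted p = 0.0723 did not pass the test. GPX4 passed with at least 10 counts required in every library (0.16, adjusted p = 0.0490) and with the replicate block (adjusted p = 0.0108). It also passed without knockdown replicate 3 (adjusted p = 6.14e-04), and with the GC correction its value was -0.057 (adjusted p = 0.265). MYC was at 223, 222 and 205 CPM in the shFOXRED1 libraries and 297, 322 and 293 CPM in the shControl libraries and fell 1.40-fold without overlap (log2 fold change -0.49 ± 0.055 (SE), adjusted p = 2.52e-06). MTOR was at 79.9, 86.4 and 82.7 CPM in the shFOXRED1 libraries and 93.4, 89.5 and 94.9 CPM in the shControl libraries, a log2 fold change of -0.16 ± 0.061 (SE), adjusted p = 0.0508 that passed with the replicate block (-0.16, adjusted p = 0.0138), without knockdown replicate 3 (adjusted p = 0.0244) and with the GC correction (adjusted p = 0.00614). YY2 was at 2.38, 1.84 and 2.39 CPM after knockdown against 1.38, 0.929 and 1.97 CPM in the controls (log2 fold change 0.63 ± 0.30 (SE), adjusted p = 0.119), and TRIM15 had a total of 1 count over the 6 libraries and was not tested.

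The wider lists around these genes were mixed. Of 36 ferroptosis and glutathione genes 11 rose and 10 fell (median 0.011). TXNRD1, thioredoxin reductase, was among the most abundant, at 901, 930.2 and 949 CPM after knockdown against 1639.7, 1647 and 1688 CPM in the controls, and fell 1.79-fold (log2 fold change -0.84 ± 0.041 (SE), adjusted p = 1.46e-10). The ferritin chains FTL (0.48) and FTH1 (0.45) rose, the transferrin receptor TFRC (-0.22) fell, and SLC7A11, the light chain that pairs with SLC3A2, was at -0.15 ± 0.069 (SE) with an adjusted p of 0.105. In the NRF2 target list 13 of 29 rose and 7 fell (median 0.15; 4 fell without knockdown replicate 1). The aldo-keto reductase AKR1C1 (0.86) rose with the ferritins, and NQO1 (-0.015, adjusted p = 0.854) did not pass. Of 53 genes of mTOR signalling 11 rose and 11 fell (median 0.024; 7 rose without knockdown replicate 2 or control replicate 3, and 14 fell with the GC correction), shares near those of all genes (20.8% in each direction): GRB10, an adaptor that restrains insulin signalling (-0.78), the translation repressor EIF4EBP2 (-0.44) and its target EIF4E (-0.50) fell, and IRS2 (0.41) rose. The MYC network had 15 of 29 genes lower and 3 higher (median -0.21; 19 lower with the GC correction), with ornithine decarboxylase ODC1 (-0.76), the nucleolar protein NOLC1 (-0.96) and CAD, the first enzymes of pyrimidine synthesis (-0.45), among those that fell.

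Genes of DNA replication fell almost throughout. Of 60 members tested, of 61 listed, 56 fell and none rose, 93.3% beside 19.7% of all genes, and the median log2 fold change was -0.61; 51 to 58 fell under every alternative fit, and 55 with the GC correction (median -0.63). MCM6, a subunit of the replicative helicase, was at 36.2, 38.5 and 34.4 CPM after knockdown against 72.1, 80.7 and 88.0 CPM in the controls (log2 fold change -1.14 ± 0.080 (SE), adjusted p = 8.88e-09). MCM4, from the same helicase, was at 83.8, 82.6 and 83.0 CPM after knockdown against 144, 144 and 150.2 CPM in the controls (log2 fold change -0.81 ± 0.056 (SE), adjusted p = 6.93e-09). PCNA, the sliding clamp of the polymerases, was at 93.7, 93.6 and 97.4 CPM after knockdown against 155, 174 and 161 CPM in the controls (log2 fold change -0.78 ± 0.059 (SE), adjusted p = 2.20e-08). In each of these genes every knockdown library was far below every control. MCM5 (-1.0), MCM3 (-0.74), MCM2 (-0.71) and MCM7 (-0.51) fell with them, as did both subunits of ribonucleotide reductase, RRM1 (-0.84) and RRM2 (-0.94), the clamp loader subunits RFC3 (-0.87) and RFC4 (-0.86) and UHRF1, which recruits the maintenance methyltransferase (-1.08). Among the 4 members that did not pass were the origin-recognition genes ORC2 (-0.14) and ORC5 (-0.15) and the polymerase subunit POLD3 (-0.071).

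Of 62 genes of mitosis and the cell cycle 49 fell and 3 rose (median -0.60), and with the GC correction 49 fell and 4 rose. In bulk RNA, fewer cycling cells and less of each transcript per cycling cell cannot be told apart. In growth assays the study reports the opposite direction, with more proliferation and colony formation of esophageal adenocarcinoma cells after FOXRED1 knockdown. The reason for this difference was not tested. CCND1, cyclin D1, which drives entry into S phase, was at 324, 331 and 322 CPM after knockdown against 532, 535 and 533 CPM in the controls (log2 fold change -0.71 ± 0.045 (SE), adjusted p = 2.73e-09). MKI67, the proliferation marker, was at 204, 208 and 229 CPM after knockdown against 366, 348 and 352 CPM in the controls (log2 fold change -0.73 ± 0.054 (SE), adjusted p = 1.67e-08). Both genes were tight within groups and wide apart between them. Topoisomerase TOP2A (-0.75), the kinetochore proteins CENPF (-0.85), CENPE (-1.04) and BUB1 (-0.93), the kinases CDK1 (-0.82) and PLK1 (-0.56) and the transcription factors E2F1 (-0.86), E2F7 (-1.02) and MYBL2 (-0.68) fell too. The members that rose were inhibitors of cyclin-dependent kinases and a phosphatase that activates them: CDKN2B, the p15 inhibitor, was at 189, 185 and 173 CPM after knockdown against 119, 117 and 114 CPM in the controls (log2 fold change 0.65 ± 0.056 (SE), adjusted p = 1.18e-07), CDKN1B, p27, rose (0.27), and CDC25B rose (0.13) with a call that several alternatives lost. CDKN1A, p21, fell (-0.24). Of 28 p53 targets 9 rose and 8 fell, among them TP53INP1 (0.71) and BBC3, the apoptosis gene PUMA (0.68), which rose, and FAS (-0.73), MDM2 (-0.52) and PMAIP1 (-0.71), which fell.

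**Figure D2:**
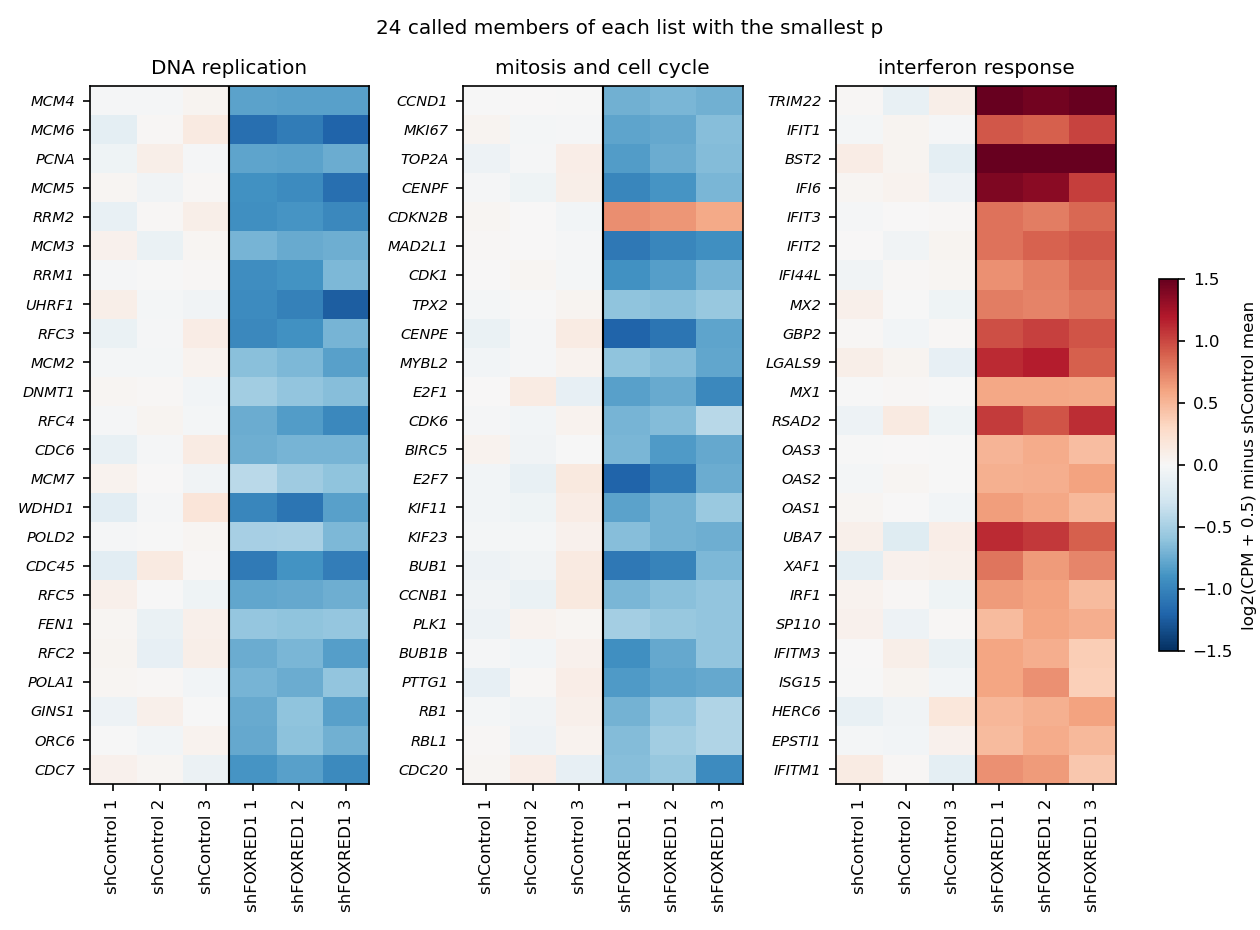
Level of leading genes of the DNA replication, mitosis and interferon response lists in each of the 6 libraries, as log2(CPM + 0.5) minus the gene's mean over the 3 controls, on a colour scale that ends at ±1.5. The controls stay near 0, the 3 knockdown libraries share one colour for each gene, and TRIM22 and BST2 are the darkest.

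Promoters of these genes were read because the replication genes moved together. Windows of 300 bases, 250 before and 50 after the start, came from RefSeq (GRCh38.p14), and 52 of 60 replication genes and 48 of the 62 mitosis genes had one. An E2F site, taken as TTTGGCGC, TTTCCCGC, TTTCGCGC or TTTGCCGC on either strand, was in at least one window of 26 of the 52 replication genes and 7 mitosis genes (14.6%), against 3.99% of all genes with a window and 6.38% of those tested. Part of each window is given below for genes that fell, 5′ to 3′ on the gene's strand, with the match in capitals.
MCM6: gtcaggtttgGCGCGAAAtctccagctc
PCNA: agcgtcagggGCGGGAAAaggcgtgcgt
MCM3: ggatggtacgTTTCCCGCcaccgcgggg
UHRF1: ccgagttttcGCGGGAAAaaaatc
They lie at chr2:135876512-135876539, chr20:5126664-5126691 and chr6:52284899-52284926 on the minus strand and chr19:4909477-4909500 on the plus strand, and the match in MCM6 overlaps another match to the same set. The median log2 fold change of replication genes was -0.66 with a site and -0.60 without, and of mitosis genes -0.70 and -0.62. Over all tested genes with a window, 29.4% of the 694 with an E2F site and 22.2% of those without one fell. The 694 include the members of both lists that have a site. A match is a description of the letters and not of binding.

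Genes of ribosomes and their assembly fell by smaller amounts. Of 73 cytosolic ribosomal protein genes 38 fell and none rose (median -0.17; 52 fell with the GC correction), led by RPL3 at 447, 435 and 382 CPM after knockdown against 689.9, 696 and 649 CPM in the controls (log2 fold change -0.69 ± 0.057 (SE), adjusted p = 6.91e-08) and by RPL5 (-0.56), RPS3A (-0.48) and RPL21 (-0.47); many of these genes have processed pseudogenes that can share their reads. Of 55 ribosome biogenesis genes 25 fell and 3 rose (median -0.19); 32 fell with the GC correction, and the number that rose was 1 without knockdown replicate 2 or control replicate 3 and 5 without knockdown replicate 3. NOLC1, a chaperone of the nucleolus, was at 129, 134 and 127 CPM after knockdown against 256, 252 and 251 CPM in the controls (log2 fold change -0.96 ± 0.052 (SE), adjusted p = 4.72e-10), and the helicase DDX21 (-0.46), NPM1 (-0.33) and nucleolin NCL (-0.31) fell less.

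Most genes of the interferon response rose. Of 50 members tested, of 54 listed, 40 rose and none fell, 80% beside 16.8% of all genes, with a median of 0.52; 39 to 47 rose under every alternative, and 47 with the GC correction (median 0.47). IFIT1, which binds viral RNA without a host cap, was at 287, 281 and 305 CPM after knockdown against 148, 155 and 148 CPM in the controls (log2 fold change 0.95 ± 0.053 (SE), adjusted p = 7.22e-10). BST2, tetherin, which holds budding virions at the membrane, was at 55.2, 54.9 and 46.0 CPM after knockdown against 17.2, 16.3 and 14.3 CPM in the controls (log2 fold change 1.71 ± 0.096 (SE), adjusted p = 7.22e-10). TRIM22, an antiviral ubiquitin ligase, was at 56.0, 51.3 and 58.6 CPM after knockdown against 18.8, 17.1 and 19.7 CPM in the controls (log2 fold change 1.57 ± 0.084 (SE), adjusted p = 4.59e-10). In all 3 genes every knockdown library was far above every control. IFI6, a mitochondrial and endoplasmic reticulum protein that protects from apoptosis, was at 370.3, 357 and 287 CPM after knockdown against 142, 145 and 132 CPM in the controls (log2 fold change 1.28 ± 0.077 (SE), adjusted p = 1.56e-09), with knockdown replicate 3 below the other 2 and above every control. IFIT2 (0.88), IFIT3 (0.82), MX1 (0.58), MX2 (0.77), RSAD2 (1.05) and ISG15 (0.55), the 2′-5′ oligoadenylate synthetases OAS1 (0.57), OAS2 (0.56) and OAS3 (0.51), and the transcription factor IRF1 (0.57) rose as well. Controls already held many of these transcripts at high level, 865 CPM of OAS3 and 379 CPM of MX1 on average.

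Promoters of the interferon genes were read for the interferon-stimulated response element, taken as GAAA, any 2 bases and GAAA again on either strand. It was present for 27 of 40 members with a window (67.5%), against 4.38% of all genes with a window and 3.87% of those tested, and for 20 of the 30 that rose. The median log2 fold change was 0.51 for members with the element and 0.54 for those without. Windows of 4 genes that rose are given in the same way, with the element in capitals.
IFIT1: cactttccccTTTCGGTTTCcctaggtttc
BST2: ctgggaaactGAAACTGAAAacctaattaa
IFI6: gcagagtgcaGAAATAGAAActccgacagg
IFIT3: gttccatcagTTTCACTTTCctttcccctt
They lie at chr10:89392510-89392539 and chr10:89332468-89332497 on the plus strand for IFIT1 and IFIT3, and at chr19:17405735-17405764 and chr1:27672266-27672295 on the minus strand for BST2 and IFI6. The elements of IFIT1, BST2, IFI6 and IFIT3 ended 93, 114, 83 and 41 bases before the start, and the match in capitals in BST2 overlaps another match to the element. Over all tested genes with a window, 26.4% of the 421 with the element and 17.3% of those without one rose. The 421 include the 27 list members with the element, so this comparison is not separate from the list.

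Inflammatory and immediate early genes split by member. Of 35 NF-kB list genes 12 rose (34.3%) and 8 fell (22.9%), and with the GC correction the balance turned, with 10 that rose and 12 that fell. IL1A, interleukin 1 alpha, was at 14.9, 15.9 and 17.0 CPM after knockdown against 49.95, 51.3 and 59.3 CPM in the controls (log2 fold change -1.75 ± 0.090 (SE), adjusted p = 3.41e-10), with every knockdown library under every control, and IL1B (-1.71), the apoptosis inhibitor BIRC3 (-0.72) and CXCL1 (-0.36) fell, while the macrophage growth factor CSF1 (0.83) and the factor genes RELA (0.22), RELB (0.37) and REL (0.53) rose. Of 34 genes of the AP-1 and immediate early list 9 rose and 16 fell. FOSL1, a FOS-family partner in AP-1, was at 85.6, 86.5 and 75.5 CPM after knockdown against 199, 204 and 183 CPM in the controls (log2 fold change -1.24 ± 0.065 (SE), adjusted p = 4.33e-10), and JUND, a JUN-family partner, was at 176, 179 and 161 CPM after knockdown against 80.9, 80.8 and 74.8 CPM in the controls (log2 fold change 1.13 ± 0.062 (SE), adjusted p = 5.96e-10). Of the other members of both families FOSL2 (0.29), JUN (0.33) and JUNB (0.50) rose, and FOS (0.49, adjusted p = 0.0652) and FOSB (-0.47, adjusted p = 0.257) did not pass, with the ERK phosphatase gene DUSP6 (-0.91) and PHLDA1 (-0.73) lower. In the epithelial and mesenchymal list 6 of 32 rose and 11 fell (9 and 14 with the GC correction). The laminin chain LAMA3 (-0.76), fibronectin FN1 (-0.58) and the receptor kinase AXL (-1.12) were among those that fell. E-cadherin CDH1 (0.065, adjusted p = 0.247) and EPCAM (-0.066, adjusted p = 0.250) did not pass. The columnar epithelial markers went both ways: of 18 tested, 7 rose (38.9%) and 6 fell (33.3%). Their median was 0.099, with values from -0.835 to 1.19, and the transcription factor GATA6 (-0.83) was among those that fell.

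In the protein folding lists falls outnumbered rises, and the lysosome and autophagy list went both ways. Of 25 heat shock genes 13 fell and 2 rose (median -0.17): HSPA8, the constitutive HSP70, fell (-0.51), the chaperonin subunit TCP1 fell (-0.42), and HSPB1 (0.63) and the collagen chaperone SERPINH1 (0.66) rose. Of 40 unfolded protein response genes 14 fell and 7 rose, with SEL1L, a scaffold of endoplasmic reticulum-associated degradation, at 128, 119 and 143 CPM after knockdown against 261, 261 and 284 CPM in the controls (log2 fold change -1.05 ± 0.065 (SE), adjusted p = 2.16e-09) and HSPA5 at 0.037 ± 0.043 (SE) (adjusted p = 0.538). Of 45 lysosome and autophagy genes 17 rose and 10 fell (10 rose without control replicate 3, 6 fell without control replicate 2, and 13 fell with the GC correction). SQSTM1, the autophagy receptor p62, was at 1500.0, 1449.6 and 1269 CPM after knockdown against 852, 843 and 796 CPM in the controls (log2 fold change 0.76 ± 0.055 (SE), adjusted p = 1.34e-08), and the cathepsins CTSA (0.54), CTSD (0.67), CTSB (0.26) and CTSL (0.31) rose, while the proton pump subunit ATP6V1A (-0.54) fell. Of 37 hypoxia genes 9 rose and 10 fell (13 and 11 with the GC correction), with VEGFA (0.42) and the carbonic anhydrase CA12 (0.85) higher and the collagen hydroxylase P4HA1 (-0.46) and HIF1A (-0.28) lower.

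The study also selected 11 genes besides FOXRED1 from its TRIM15, YY2 and YY2-binding data, and the list is not independent evidence of a direction in this series. After FOXRED1 knockdown E2F1 (-0.86), the secreted neuropeptide precursor VGF (-0.84), the kinase PASK (-0.42) and the kinetochore subunit SPC24 (-0.62) fell, and the RNA-binding protein RBM23 (0.24) rose. The other 6 did not pass: EXOSC6 (-0.23), INO80E (0.11), BOP1 (0.081), SAC3D1 (-0.044), QTRT1 (0.045) and ATP13A1 (-0.015). EXOSC6, a subunit of the RNA exosome, passed with the replicate block (-0.23, adjusted p = 0.0440), 7 rather than 4 of the 11 fell with the GC correction, and 3 rather than 1 rose without knockdown replicate 3.

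Changes were set beside those of the YY2 knockdown (shYY2), run in the same cells with control libraries of its own. FOXRED1 transcript fell in both, with a log2 fold change of -0.78 after shFOXRED1 and -0.89 after shYY2, and the test of the difference between the knockdowns did not pass (adjusted p = 0.480). Of 17146 genes tested for a difference 9334 differed (54.4%). Of 14922 genes tested in both, 1389 rose in both, which is 54.9% of those that rose after shFOXRED1 and 25.3% of those that rose after shYY2, while 36.8% of all 14922 rose after shYY2. Similarly 1895 fell in both, 61.4% and 32.1% of each list, while 39.6% of all fell after shYY2. A further 617 genes rose after shFOXRED1 and fell after shYY2, and 757 did the reverse.

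SLC3A2 moved in opposite directions, at 0.31 after shFOXRED1 and -1.40 after shYY2 (adjusted p of the difference 1.85e-14). For DNA replication genes the median log2 fold change was -0.61 after shFOXRED1 and -1.29 after shYY2, mitosis genes -0.60 and -0.50, and ribosome biogenesis genes -0.19 and -1.18. Interferon genes had medians of 0.52 and 0.31: 40 of 50 rose and none fell after shFOXRED1, 33 rose and 11 fell after shYY2, and 37 of the 50 differed between the knockdowns. The AP-1 list had a median of -0.15 after shFOXRED1 and 0.35 after shYY2, and the complex I assembly factors -0.12 and -0.53, with 15 of these 20 genes differing. MMP1 fell after both, with log2 fold changes of -2.64 and -0.77, and the difference passed (adjusted p = 2.19e-15).

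**Figure D3:**
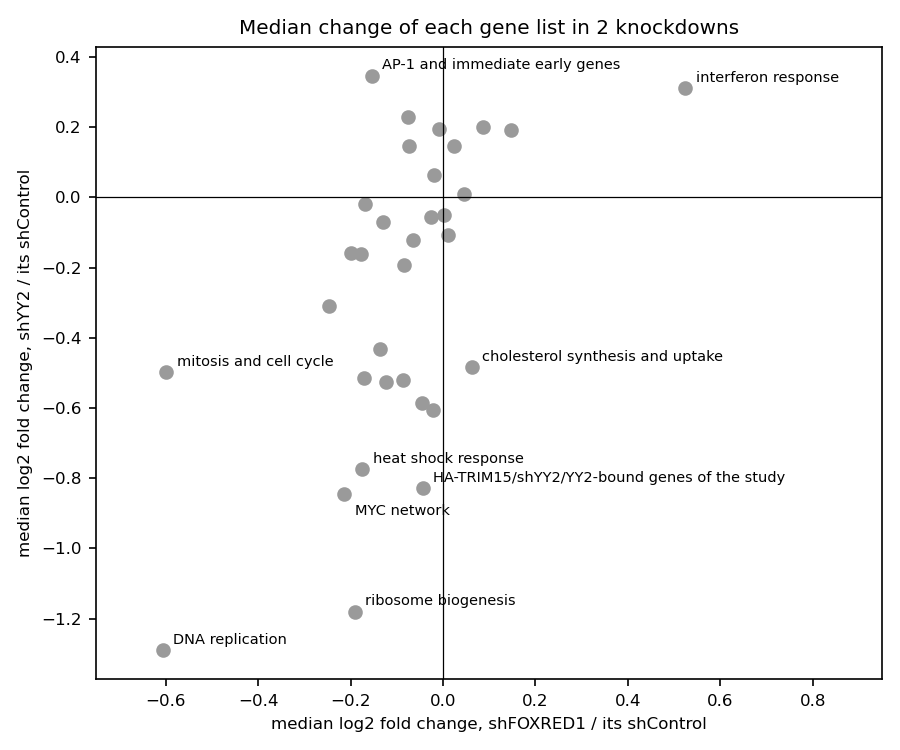
Median log2 fold change of each gene list, marker lists left out, after FOXRED1 knockdown and after YY2 knockdown, each against its own 3 shControl libraries. The DNA replication list lies below 0 in both, at -0.61 and -1.29, and the interferon list above 0 in both, at 0.52 and 0.31.

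Genes whose longest 3′ untranslated region holds the 7 bases that pair with the seed of a hairpin were listed as a description, since seed matches can guide off-target effects. For hairpin #1 the median log2 fold change was -0.0066 in 2149 genes with a match and -0.014 in 10219 without. For hairpin #2 it was -0.072 in 1969 genes with a match, of which 29.5% fell, and -0.00028 in 10399 without, of which 22.5% fell. Untranslated regions with a match to hairpin #2 had a median length of 3001 bases, against 1166 bases for those without, and the part of length in this gap was not tested.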

How the data were processed

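OE33 cells were transfected with hairpin plasmids for 72 h, and RNA was sequenced as paired reads of 150 bases. The deposited files hold whole-number read counts per gene that the authors made from reads mapped to hg38 (per the submitters' processing notes); the aligner and counting tool are not given in the sources used here, and the use of strand is unsettled, so overlapping and antisense genes can share reads. Of 61860 genes 42054 had a symbol in the gene name table of the reference, matched by Ensembl ID. Of the 24 libraries, the 3 shFOXRED1 and 3 shControl libraries were compared, 14299807 to 18522633 counts each; the 6 libraries of the YY2 knockdown served only for the comparison of the 2 knockdowns, and the other 12 were not used.

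Counts were analysed with edgeR 4.0.16 (glmQLFit and glmQLFTest; TMM factors; filterByExpr with minimum counts of 10 and 15 in total) in R 4.3.3, with Benjamini-Hochberg adjustment and a threshold of 0.05; SE is the log2 fold change over the root of F. The biological coefficient of variation was 6.47%. No pair of replicates agreed within sampling noise (chi-square per gene 2.13 to 8.09). Replicate 3 was furthest from the others in both groups. In the knockdown it gave 8.09 and 7.01, against 2.15 between replicates 1 and 2. In the controls it gave 3.6 and 3.23, against 2.13. On the second principal component (14.9% of the variance) the replicate 3 libraries lay at -24.3 and -18.55 and the others at 8.866 to 12.74. The reason was not tested. The difference from shYY2 was the interaction term over 12 libraries. Named genes were FOXRED1, genes the study names, the 12 with the largest change and the 5 with the smallest p in each direction, and up to 4 per gene list; further members of a list are given by value, and some genes are not reported here. Members and lists were chosen with earlier results of these data known, and no set test was run. Same-numbered libraries deviated together with correlations of 0.029, 0.0099 and 0.069 over all tested genes. Over the 9725 genes with a mean of at least 10 CPM the correlations were 0.211, 0.125 and 0.409. The labels and methods give no reason to pair the libraries by number. The fit reported is unpaired, and the replicate block, which takes the numbers as pairs, is an alternative (3157 genes rose and 3636 fell with it). Alternatives were DESeq2 1.42.0 (its size factors and its Wald test), 2 other filters on low counts, the replicate block, leaving out each library and, chosen after seeing the data, an offset for the GC content of transcripts. The code was tested on simulated data. Gene positions, transcripts and hairpin sites are from GENCODE 29.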

Additional observations from a re-analysis of the deposited data

How the results depend on the processing

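The 2650 genes that rose and 3102 that fell numbered 2080 to 3215 and 2549 to 3638 when single libraries were left out, and 3157 and 3636 with the replicate block; no call changed sign except under the GC correction, which kept 5069 of the 5752 calls and turned 23. Thresholds on size moved the counts: 904 and 798 at 1.5-fold, 344 and 200 at 2-fold, where 63.2% of calls were higher against 46.1% without one. Without the filter on low counts the median of all genes was 0.10. For 175 named genes over 13 alternatives, 2218 of 2266 values kept direction and call, and no called gene reversed. Log2 fold changes that turned sign, none of them called in the fit reported, were those of GPX4 (-0.057 with the GC correction and -0.056 with the block added), BOP1 (-0.12 and -0.12, past the threshold), INO80E (-0.065 and -0.065) and QTRT1 (-0.11 and -0.11), and, over single libraries left out, QTRT1 (-0.109 to 0.169), ATP13A1 (-0.0517 to 0.0262) and SAC3D1 (-0.103 to 0.0322); the cause was not tested. The replicate block changed the calls of GPX4, MTOR and EXOSC6 among genes the study names. Depth limits genes under about 1 CPM, and 37 mitochondrially encoded genes had no counts.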

Other observations

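The 5 lists below were drawn up after the values of their genes had been seen, so their counts are descriptions without a test, to be set beside the 16.8% of all genes that rose and the 19.7% that fell. Genes of adhesion to the basement membrane were lower after FOXRED1 knockdown. ITGB1, the beta 1 chain shared by many integrins, was at 882, 873 and 928 CPM after knockdown against 1779.8, 1845 and 1909.5 CPM in the controls (log2 fold change -1.04 ± 0.043 (SE), adjusted p = 1.87e-11), and its partners ITGA3 (-0.81), ITGA6 (-0.69) and ITGA2 (-0.56) fell with it. Of 17 integrin genes tested 10 fell (58.8%) and 1 rose, ITGA5 (0.41), with a median of -0.30. Of 8 laminin genes 6 fell (75%) and none rose (median -0.37): LAMB1 was at 662, 663 and 682 CPM after knockdown against 1095, 1080.3 and 1139 CPM in the controls (log2 fold change -0.72 ± 0.043 (SE), adjusted p = 1.28e-09), and LAMA3 (-0.76) and LAMC1 (-0.44) fell as well. Of 27 targets and members of the YAP and TEAD pathway 17 fell (63%) and 4 rose (14.8%; median -0.30), with tissue factor F3 (-0.85), the growth-regulating matrix protein CCN2 (-1.88) and YAP1 itself (-0.59) among those that fell and IGFBP3 (0.44) among those that rose.

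Carcinoembryonic antigen genes were higher: 4 of 5 CEACAM genes tested rose (80%), CEACAM7 (2.20), CEACAM1 (0.47), CEACAM5 (0.42) and CEACAM6 (0.30). CEACAM5, the antigen used as a tumour marker in serum, was at 1998, 2069 and 2084 CPM after knockdown against 1549, 1530.4 and 1513 CPM in the controls, a modest rise without overlap. In the interleukin 1 family 6 of 13 genes fell (46.2%) and 2 rose (15.4%). The ligands IL1A (-1.75), IL1B (-1.71) and IL18 (-1.02), the antagonist IL1RN (-0.97), the decoy receptor IL1R2 (-1.03) and IL1RL1 (-1.59) fell, and both chains of the signalling receptor, IL1R1 (0.58) and IL1RAP (0.42), rose.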
